A study of Mus musculus with 10 samples.

Results

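A set of 10 genes of the mammalian pigment system were followed in whole mouse skin: Tyr, Tyrp1, Dct, Mlana, Slc45a2, Oca2, Trpm1, Mitf, Mc1r and Asip. They were chosen by name, and all 10 were found among the 20611 genes listed for each mouse; 9 were listed under these symbols and Asip under its classical locus symbol, a. Melanin is made in melanocytes, inside membrane-bound organelles called melanosomes. In mouse trunk skin most melanocytes sit in the hair follicles, where they deliver pigment to the growing hair shaft during the growth phase of the hair cycle, called anagen, and regress with the follicle afterwards. The transcription factor MITF drives the genes of melanin synthesis, and MC1R, the melanocortin receptor, and ASIP, the secreted agouti protein that antagonises it, set the amount and kind of pigment.

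RNA was sequenced from the skin of 10 mice, 5 called Klk6+ and 5 called WT, with 3 males (libraries 1 to 3) and 2 females (libraries 4 and 5) of each genotype. Klk6+ mice carried 2 constructs: K5-tTA, in which the bovine keratin 5 promoter drives the tetracycline transactivator, and Tetos-Klk6, a Myc/His-tagged mouse Klk6 gene (a secreted trypsin-like protease of the kallikrein family) that the transactivator turns on when doxycycline is absent. The promoter acts in epidermal keratinocytes and in some other stratified squamous epithelia, so the transgene was not directed to melanocytes. The WT group were littermates that carried one of the constructs without expressing Klk6, or none. The transgenic lines were backcrossed to C57BL/6, transgenic mice came from the fourth generation or later, and Klk6+ mice were bred from matings kept on doxycycline. The protocol, given alike for both groups but worded for Klk6+ mice, has doxycycline chow returned at 10 to 11 weeks of age, shortly before the mice stopped eating and became moribund, and tissue taken at 14 to 16 weeks. Klk6 itself lay between 12.7 and 26.5 CPM (counts scaled to a fixed library total) in the WT libraries and between 10290 and 14769 CPM in the Klk6+ libraries. Returned doxycycline should turn this construct off, so the stated schedule and the high Klk6 level do not match, and whether the mice were on doxycycline when sampled cannot be told from the labels. The libraries held 26521019 to 41970272 counts, and 1 count was worth 0.0230 to 0.0372 CPM.

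Several Klk6+ libraries stood apart in their hair keratins, a property that has to be known before the pigment genes are read. Hair shaft and inner root sheath keratins, made in growing follicles, summed to 217, 80.8, 46.6, 21.4 and 309.6 CPM in WT 1 to 5, and to 634, 4425, 18.0, 822 and 22.0 CPM in Klk6+ 1 to 5. Klk6+ 2 was far above all others, and Klk6+ 3 and Klk6+ 5 were about as low as the lowest WT library. Results on the members are therefore also given without these libraries.

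The 3 melanogenic enzyme genes, 2 melanosome transporter genes, Trpm1 and Asip were higher in Klk6+ skin, and Mitf was lower. Of the 10 members, 7 were higher (Tyr, Tyrp1, Dct, Slc45a2, Oca2, Trpm1 and Asip), 1 was lower (Mitf), and Mlana and Mc1r did not pass the test, an edgeR quasi-likelihood test with sex as a covariate and a Benjamini-Hochberg adjusted p below 0.05. Across the 14861 genes tested, 37.7% were called higher and 35.1% lower, so that 72.8% of all genes differed and a call on any one member is not unusual in these libraries. The median log2 change was 2.68 over the members and 0.04 over all genes tested. In 4 members every Klk6+ library was above every WT library, and in 1 every Klk6+ library was below; these patterns held for 30.1% and 27% of all genes (57% either way). In whole skin, fewer cells of a type and less RNA per cell cannot be told apart.

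The promoter windows of the members are shown here because some of them carry the short word that MITF is known to bind. RefSeq gives 300-base windows (250 bases before to 50 after a start site, build GRCm38.p6) for 8 of the 10 members, 11 windows in all. The word TCATGTG, on either strand, was present in 5 of these 11 windows and in 3.77% of all 32851 RefSeq windows; it contains the shorter word CATGTG, present in 7 of 11 and in 14.2%. The related word CACGTG was present in 1 of 11 and in 7.15%. The stretches around TCATGTG, written 5′ to 3′ on the gene's strand with the word in capitals, came from Tyr (minus strand, chr7:87493498-87493564), Tyrp1 (plus strand, chr4:80834136-80834202), Dct (minus strand, chr14:118052361-118052427), Trpm1 (plus strand, chr7:64153663-64153729) and Mc1r (plus strand, chr8:123407000-123407066).
Tyr: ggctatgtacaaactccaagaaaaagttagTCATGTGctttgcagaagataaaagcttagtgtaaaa
Tyrp1: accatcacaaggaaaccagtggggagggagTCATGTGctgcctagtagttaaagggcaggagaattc
Dct: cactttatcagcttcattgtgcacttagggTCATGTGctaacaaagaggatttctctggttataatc
Trpm1: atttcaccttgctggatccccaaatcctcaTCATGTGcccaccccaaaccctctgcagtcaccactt
Mc1r: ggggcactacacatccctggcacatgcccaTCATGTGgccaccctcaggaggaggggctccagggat

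In these windows the word began at -22 bases from the start site in Tyr, -47 in Tyrp1, -151 in Dct, -142 in Trpm1 and -52 in Mc1r; the Dct window held another copy, in reverse, at -232. A match describes the letters and is not evidence of binding. Tyr, Tyrp1, Dct and Trpm1 (in 1 of its 2 windows) hold the word and were called higher in Klk6+ skin. Mc1r, which also holds the word, was not called. Oca2 and Asip, whose windows lack it, were called higher too, and the Oca2 window holds the shorter CATGTG, in reverse, at -186. Mitf, whose windows also lack TCATGTG, was called lower. Whether the word goes with the calls was not tested. Mitf has 3 windows, for different start sites, and the most downstream one (plus strand, chr6:97991600-97991666) held TGACGTC at -153. This word was present in 1 of the 11 member windows and in 3.21% of all windows, and it was not among the words planned. It is shown because Mitf is the member that fell, and a tie between the word and the fall was not tested.
Mitf: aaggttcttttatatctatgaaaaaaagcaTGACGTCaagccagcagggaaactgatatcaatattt

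Tyr, Tyrp1 and Dct encode the melanogenic enzymes: tyrosinase starts melanin synthesis from tyrosine, and the other two act on later intermediates of the pathway. Tyr (chr7:87424771-87493512, GRCm38) was at 2.66, 3.30, 1.97, 2.57 and 2.75 CPM in WT 1 to 5 and at 22.0, 12.9, 6.21, 17.2 and 3.76 CPM in Klk6+ 1 to 5. The groups did not overlap, but Klk6+ 5 was only just above the highest WT library. The mean rose from 2.65 ± 0.472 to 12.4 ± 7.57 CPM (SD, n = 5 each), a log2 change of 2.21 ± 0.44 (SE; edgeR with Benjamini-Hochberg adjustment, adjusted p = 0.00108), or 4.64-fold.

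Tyrp1 (chr4:80834123-80851719) was at 6.27, 7.87, 2.78, 3.89 and 7.02 CPM in WT 1 to 5 and at 78.9, 54.7, 30.4, 95.0 and 12.5 CPM in Klk6+ 1 to 5. All Klk6+ values were above all WT values, and the Klk6+ libraries spanned a wide range. The log2 change was 3.28 ± 0.54 (edgeR, Benjamini-Hochberg adjusted p = 0.000305), and it was 2.66 without Klk6+ 4. Dct (chr14:118012790-118052244), the dopachrome tautomerase gene, was at 12.5, 23.7, 5.98, 12.2 and 12.6 CPM in WT 1 to 5. In Klk6+ 1 to 5 it was at 122.6, 95.0, 39.8, 153.7 and 19.6 CPM, so that Klk6+ 5 lay below WT 2 and the groups overlapped. The log2 change of Dct was 2.69 ± 0.56 (edgeR, Benjamini-Hochberg adjusted p = 0.00154), and 2.03 without Klk6+ 4.

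The melanosome transporter genes Slc45a2 and Oca2 and the channel gene Trpm1 were also called higher, and Mlana was not called. Slc45a2 and Oca2 encode transporters of the melanosome membrane whose loss causes albinism. Slc45a2 (chr15:11000721-11029233) was at 0.344, 0.433, 0.0897, 0.176 and 0.478 CPM in WT 1 to 5 and at 5.95, 3.52, 1.26, 5.52 and 0.670 CPM in Klk6+ 1 to 5, without overlap. Its log2 change was 3.45 ± 0.68 (edgeR, Benjamini-Hochberg adjusted p = 0.000967), on 3 to 18 counts per WT library. Klk6+ 5 had 18 counts, as did WT 2, so the lack of overlap there rests on the scaling of few reads. Oca2 (chr7:56239760-56536518) was at 0.298, 0.217, 0, 0.0293 and 0.239 CPM in WT and at 4.90, 3.59, 0.553, 3.12 and 0.149 CPM in Klk6+; Klk6+ 5 fell inside the WT range. The log2 change of Oca2 was 3.89 ± 0.96 (edgeR, Benjamini-Hochberg adjusted p = 0.00395), and 3.23 without Klk6+ 4. Where WT 3 had no count, 3 counts would have been 0.0897 CPM, and this limit covers counting error only.

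Trpm1 (chr7:64153835-64269775), a cation channel gene of melanocytes and retina, was at 1.97, 2.24, 1.32, 1.02 and 2.00 CPM in WT 1 to 5. It was at 23.1, 13.0, 2.71, 15.7 and 1.86 CPM in Klk6+ 1 to 5, with Klk6+ 5 inside the WT range. The log2 change was 2.70 ± 0.65 (edgeR, Benjamini-Hochberg adjusted p = 0.00341). Mlana (chr19:29697824-29708634), a melanosome membrane protein gene known in human melanoma as MART-1, was at 2.78, 2.53, 1.91, 0.410 and 1.43 CPM in WT and at 9.18, 5.89, 1.63, 7.50 and 0.670 CPM in Klk6+. Klk6+ 1, 2 and 4 lay above every WT library, and Klk6+ 3 and 5 lay within the WT range. Its log2 change of 1.56 ± 0.65 missed the threshold by little (edgeR, Benjamini-Hochberg adjusted p = 0.0504), passed it without Klk6+ 3 (1.83, adjusted p = 0.0193) or without Klk6+ 5 (1.71, adjusted p = 0.0199), and was 0.74 without Klk6+ 4.

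**Figure D1:**
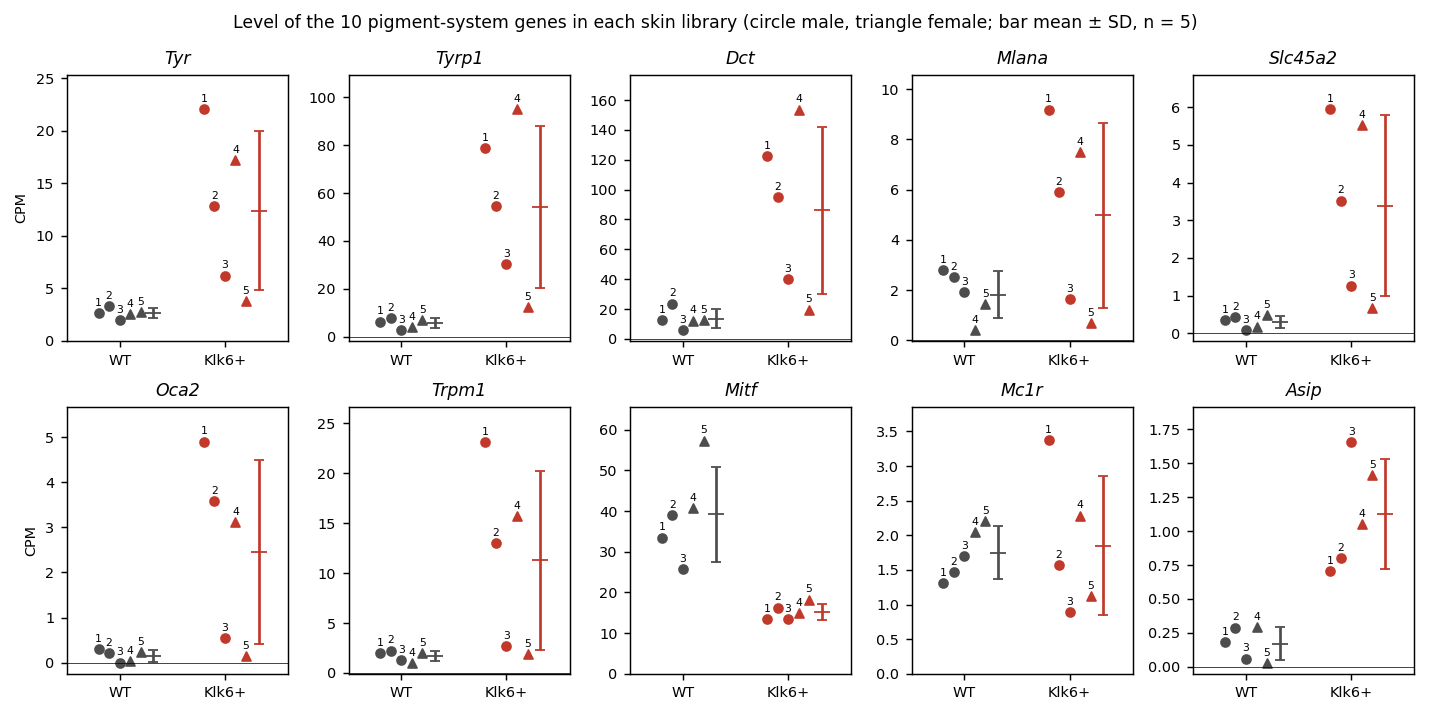
Level of the 10 pigment-system genes, in CPM, in each of the 10 skin libraries (numbered points; circles male, triangles female), with the mean and SD of each genotype (n = 5). In Tyr, Tyrp1, Dct, Mlana, Slc45a2, Oca2 and Trpm1 the points of Klk6+ 1, 2 and 4 lie above all WT points and Klk6+ 5 is the lowest Klk6+ point; in Mitf all Klk6+ points lie below all WT points.

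The lowest Klk6+ mice were the same in all 7 of these genes, while the order of the other mice varied between genes. Klk6+ 5 was the lowest Klk6+ library in 7 of 7 and Klk6+ 3 the second lowest in 7 of 7, while Klk6+ 1, 2 and 4 were above the highest WT library in 7 of 7. Klk6+ 5 was within the WT range in 4 of the 7 genes and Klk6+ 3 in 1. The summed level of the 7 genes was 26.9, 40.3, 14.1, 20.3 and 26.5 CPM in WT 1 to 5 and 267, 189, 82.6, 298 and 39.2 CPM in Klk6+ 1 to 5. After the mean of each genotype was removed, each of the 7 followed the mean of the other 6 over the 10 libraries with a Pearson r between 0.85 (Mlana) and 0.97 (Slc45a2); the points share the libraries and their scaling. Mc1r was less like them (r = 0.67), and Mitf and Asip were not (r = -0.02 and -0.31). Leaving out both Klk6+ 3 and Klk6+ 5 was chosen after seeing the data. The log2 changes were then 2.65 for Tyr, 3.71 for Tyrp1, 3.14 for Dct and 2.08 for Mlana. They were 3.96 for Slc45a2, 4.47 for Oca2 and 3.26 for Trpm1, all 7 past the threshold. Because these mice were the lowest Klk6+ mice in all 7 genes, leaving them out had to raise the changes. These values are therefore no separate support for the rise.

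Mitf moved the other way, and with much less spread among Klk6+ mice. Mitf (chr6:97807052-98021349) encodes the basic helix-loop-helix factor that acts on the enzyme genes above. It was at 33.5, 39.0, 25.6, 40.7 and 57.3 CPM in WT 1 to 5 and at 13.4, 16.3, 13.4, 14.8 and 18.2 CPM in Klk6+ 1 to 5. Every Klk6+ library was below every WT library. The mean fell from 39.2 ± 11.7 to 15.2 ± 2.05 CPM (SD, n = 5 each), a log2 change of -1.34 ± 0.16 (edgeR, Benjamini-Hochberg adjusted p = 2.7e-05), or 2.53-fold lower.

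Mitf is transcribed from several start sites in several cell types, among them macrophages and mast cells, and the counts per symbol pool all of them. Markers of other cell types therefore stand beside its value. All 9 macrophage genes tested were lower (summed level 1233 to 5125 CPM in WT, 382 to 1285 CPM in Klk6+), as were 15 of 15 skeletal muscle genes (58796 to 89031 CPM in WT, 4524 to 9407 CPM in Klk6+) and 8 of 9 adipocyte genes. Of 11 mast cell genes 9 were higher and 1 was lower (196 to 298 CPM in WT, 334 to 564 CPM in Klk6+). Beside these lists, 37.7% of all genes tested were higher and 35.1% lower. None of these markers was at 0 in every library, and their part in the Mitf result was not tested.

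The receptor and its antagonist behaved unlike each other. Mc1r (chr8:123407107-123410744) was at 1.31, 1.47, 1.70, 2.05 and 2.21 CPM in WT 1 to 5 and at 3.37, 1.57, 0.895, 2.28 and 1.12 CPM in Klk6+ 1 to 5, with broad overlap. Its log2 change of 0.10 ± 0.36 was small beside its error (edgeR, Benjamini-Hochberg adjusted p = 0.804), and its sign turned in several alternatives. Asip (chr2:154791402-155051012), listed as a, was at 0.184, 0.289, 0.0598, 0.293 and 0.0299 CPM in WT 1 to 5 and at 0.708, 0.801, 1.66, 1.05 and 1.42 CPM in Klk6+ 1 to 5. The groups did not overlap. The highest Klk6+ values were in Klk6+ 3 and 5, the Klk6+ mice lowest in Tyr, Tyrp1, Dct, Mlana, Slc45a2, Oca2 and Trpm1. The log2 change of Asip was 2.66 ± 0.50 (edgeR, Benjamini-Hochberg adjusted p = 0.000733), on 1 to 12 counts per WT library. C57BL/6 mice carry the nonagouti allele, and the labels do not give the genotype at this locus. Exons annotated to this gene overlap those of Raly on the same strand, so its counts are uncertain; exons of Trpm1 and Mc1r overlap antisense models, and the library kit does not keep strand.

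**Figure D2:**
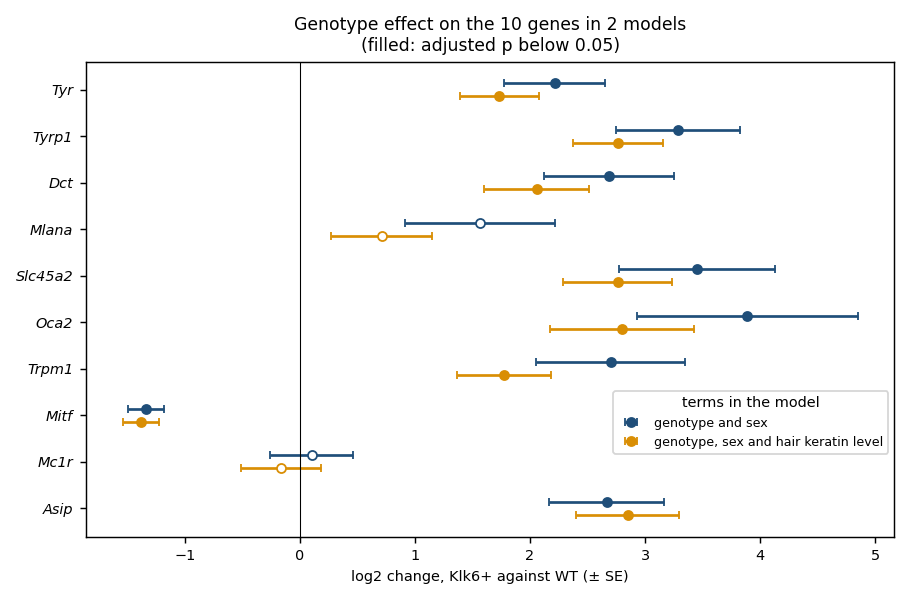
Log2 change of each member in Klk6+ against WT skin with its SE, from the model with genotype and sex (blue) and from the model that also holds the hair keratin level (orange); filled points have an adjusted p below 0.05. All 7 genes from Tyr to Trpm1 lie closer to 0 with the hair keratin level in the model, and Mitf is at -1.34 and -1.38.

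Per length, in the deposited FPKM, Mitf was the highest member in WT skin (7.30 ± 2.18; SD, n = 5) and ranked 6 of 10 in Klk6+ skin (2.90 ± 0.395). Dct was the highest in Klk6+ skin (36.3 ± 24.3), against 5.54 ± 2.52 in WT, and was followed by Tyrp1 (18.5 ± 11.9) and Mlana (16.6 ± 12.5), neighbours whose gaps were within their spread. Trpm1, Tyr and Mitf also did not differ beyond their spread in Klk6+ skin. Slc45a2, Oca2 and Mc1r closed the Klk6+ order at 1.06 ± 0.764, 0.728 ± 0.603 and 0.463 ± 0.255 FPKM, and in WT the lowest was Oca2 at 0.0461 FPKM. In WT, Mitf, Mlana and Dct were not separated beyond their spread, and the gaps below Dct, Tyrp1 and Tyr were larger than the SD of both neighbours.

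The genotype effect was compared between males and females. The interaction called none of the 10 members (edgeR, Benjamini-Hochberg adjusted p below 0.05), none at an unadjusted p below 0.05 either, and 0% of all genes; 9.49% of genes had an unadjusted interaction p below 0.05. DESeq2 called 261 genes (1.76%), none of them a member. Within males 7 members were called higher and 1 lower, beside 33.4% and 31% of all genes; within females 5 were called higher and 1 lower, beside 31.2% and 28.4%. Oca2 and Trpm1 missed the threshold in females (log2 change 3.60 with adjusted p = 0.0828, and 2.54 with adjusted p = 0.0670, edgeR). With 2 females per genotype the interaction of Oca2 had an SE of 2.11, so a difference between the sexes of that size was not detectable.

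The members were then set against the hair keratin level of each library. In a model with genotype and sex, a doubling of the summed hair keratins went with a log2 change of 0.22 ± 0.07 in Tyr, 0.26 ± 0.08 in Tyrp1, 0.26 ± 0.10 in Dct, 0.39 ± 0.10 in Mlana, 0.35 ± 0.10 in Slc45a2, 0.52 ± 0.13 in Oca2 and 0.40 ± 0.09 in Trpm1. These 7 coefficients had unadjusted p between 0.00169 and 0.0258, beside 4.99% of all genes with a positive coefficient at an unadjusted p below 0.05 and 4.71% with a negative one. After Benjamini-Hochberg adjustment edgeR called none of the 10, with 0.565% of all genes called positive and 0.074% negative, while DESeq2 called 5 of them, beside 1.16% of all genes called positive by DESeq2. The coefficients of Mitf (0.03 ± 0.03), Mc1r (0.13 ± 0.07) and Asip (-0.15 ± 0.08) did not pass even unadjusted. Coefficients above 0 were found in 9 of 10 members and in 49.6% of all genes.

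The relation rested on the hair-poor Klk6+ mice. Without both Klk6+ 3 and Klk6+ 5, the coefficient was -0.05 in Tyr and -0.01 in Dct, between 0.06 and 0.27 in the other five, and 1 member had an unadjusted p below 0.05. Without Klk6+ 2, the library richest in hair keratin, the coefficients were larger, and Mlana (0.54, adjusted p = 0.0184) and Trpm1 (0.51, adjusted p = 0.0310) passed adjustment in edgeR, beside 0.32% of all genes positive and called there. Klk6+ 2 had 4425 CPM of hair keratin and 189 CPM of the 7 genes, whereas Klk6+ 4 had 822 and 298 CPM. The mouse richest in hair keratin was therefore not the richest in pigment transcripts, and the 7 genes summed to 4.26% of the hair keratin level in Klk6+ 2 and to 458% in Klk6+ 3.

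**Figure D3:**
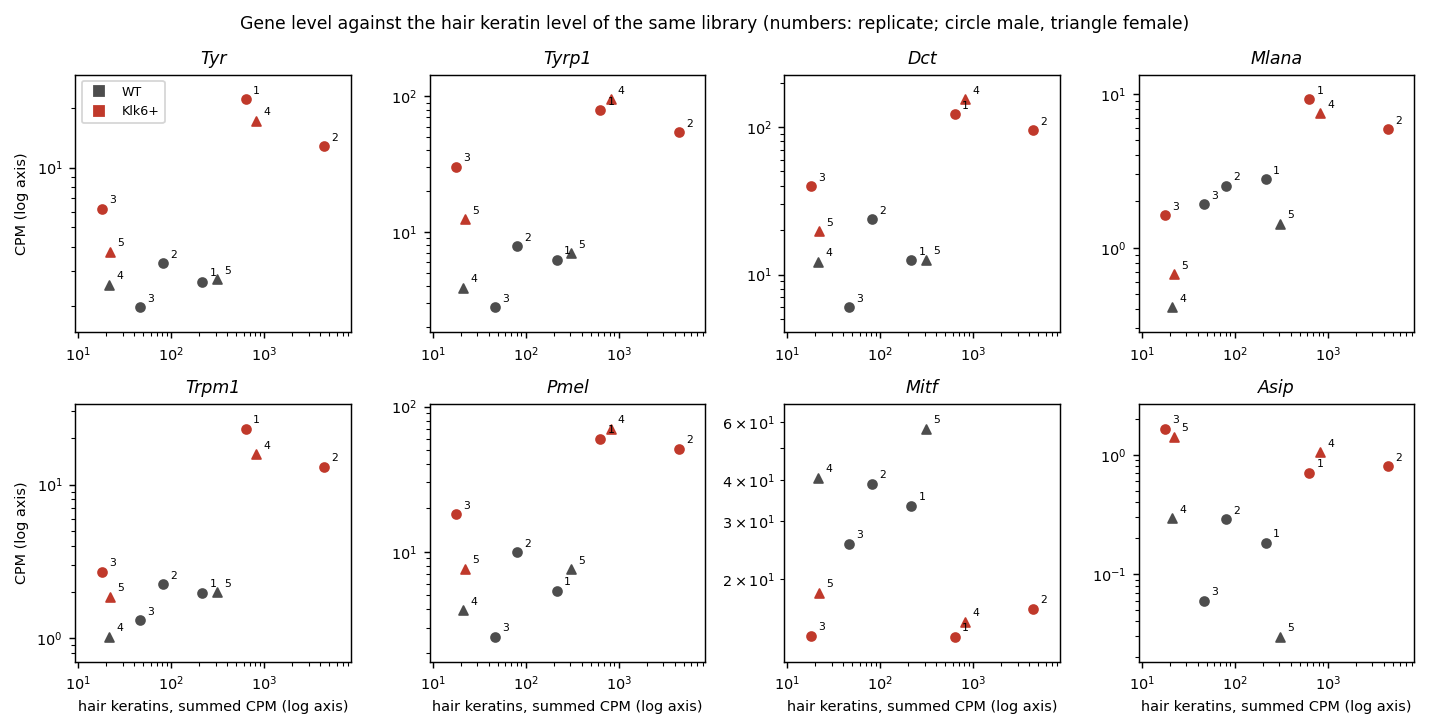
Level of 7 members and of Pmel, in CPM, against the summed CPM of hair shaft and inner root sheath keratins, each point 1 library (numbered; circles male, triangles female), both axes logarithmic. Klk6+ 3 and Klk6+ 5 have about as little hair keratin as WT 4 (18.0, 22.0 and 21.4 CPM). In these libraries Tyrp1 is at 30.4, 12.5 and 3.89 CPM, Trpm1 at 2.71, 1.86 and 1.02 CPM, and Mlana at 1.63, 0.670 and 0.410 CPM. The Mitf points of the 2 genotypes do not overlap at any hair keratin level.

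With the hair keratin level in the model, 7 members were still called higher in Klk6+ skin and 1 lower, beside 36.7% and 35.1% of all genes. Klk6+ 1, 2 and 4 had 634, 4425 and 822 CPM of hair keratin, above every WT library (21.4 to 309.6 CPM). For these mice the result therefore rests on a slope fitted in common to both genotypes, not on WT mice of equal level. The 7 were again Tyr, Tyrp1, Dct, Slc45a2, Oca2, Trpm1 and Asip. The log2 change was 1.73 ± 0.35 for Tyr, 2.77 ± 0.39 for Tyrp1, 2.06 ± 0.46 for Dct, 2.76 ± 0.47 for Slc45a2, 2.80 ± 0.63 for Oca2 and 1.77 ± 0.41 for Trpm1. For Mlana it was 0.71 ± 0.44 (edgeR, Benjamini-Hochberg adjusted p = 0.169), and for Mitf -1.38 ± 0.16. Hair keratins themselves were higher in 4 of 20 genes tested, with 16 not called. Krt84 had the smallest p (3.97 ± 0.64 on the log2 scale, edgeR adjusted p = 0.000252), but it did not follow the summed hair keratins. Its hair keratin coefficient was -0.0014 ± 0.11, and its highest level, 7.86 CPM, was in the hair-poor library Klk6+ 5. Krt35, Krt73 and Krt28 were also called, and these 3 calls were lost in limma-voom, on FPKM, and when Klk6+ 1, 2 or 4 or WT 1, 2, 3 or 4 was left out. Of 10 genes of the hair matrix and its regulators 6 were higher and 0 lower, and of 9 dermal papilla genes 2 were higher and 1 lower. These list counts come from the model without the hair keratin level, where 37.7% of all genes were higher and 35.1% lower.

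Genes of the melanosome outside the 10 split in direction. Of 6 melanosome protein genes tested, 3 were higher and 2 lower (median log2 change 1.11), beside 37.7% and 35.1% of all genes. Pmel, which forms the amyloid fibrils on which melanin is laid down, was at 5.40, 9.91, 2.60, 3.95 and 7.61 CPM in WT 1 to 5 and at 60.1, 51.2, 18.2, 70.4 and 7.64 CPM in Klk6+ 1 to 5, and rose by 2.81 ± 0.61 on the log2 scale (edgeR, Benjamini-Hochberg adjusted p = 0.00182), or by 2.17 without Klk6+ 4. Slc24a5, a cation exchanger of pigment cells (3.13 ± 0.63), also rose. Rab38, a small GTPase that carries cargo to melanosomes, rose from 17.5 ± 6.23 to 76.9 ± 8.29 CPM (edgeR, Benjamini-Hochberg adjusted p = 9.1e-07). Unlike Pmel, it differed little among Klk6+ mice (67.4 to 85.5 CPM), with 69.8 CPM in Klk6+ 5. Mfsd12, a transporter needed for red pigment, fell by 1.69. Gpnmb fell by 0.50, a call lost without WT 2, WT 5, Klk6+ 1 or Klk6+ 3, and it is also among the macrophage genes above. Of 18 genes of melanosome biogenesis and transport, which most cells express, 6 were higher and 4 lower around a median of -0.04. The same shares of all genes, 37.7% and 35.1%, stand beside these counts. Atp7a, the copper pump that supplies tyrosinase, rose by 1.27 and Lyst by 0.95, and Rab32 fell by 0.87.

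Regulators and receptors of the melanocyte lineage did not follow the enzymes as a group. Of 11 tested, 4 were higher and 5 lower, beside 37.7% and 35.1% of all genes, with a median log2 change of -0.23. Tfap2a, a factor also active in keratinocytes, rose by 1.83 and Erbb3 by 0.71. Kit, the receptor on which melanocytes and mast cells depend, rose from 12.6 ± 2.10 to 24.1 ± 7.26 CPM, beside the higher mast cell genes given above. Snai2 rose by 0.77, a call lost without Klk6+ 4 (adjusted p = 0.0574). Irf4, a factor that acts with MITF on Tyr and is also made in immune cells, fell by 2.96, Zeb2 by 1.73, Ednrb by 1.56 and Bcl2 by 0.71. Sox10, needed by melanocytes and Schwann cells alike, fell by 0.61 (edgeR, Benjamini-Hochberg adjusted p = 0.00957), beside 11 of 13 Schwann cell genes that fell (776 to 1242 CPM in WT, 278 to 397 CPM in Klk6+). Kit is itself on the mast cell list and Sox10 on the Schwann cell list, so these lists are not separate from them. The part of mast and Schwann cells in the values of Kit and Sox10 was not tested.

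The list of signals to melanocytes, which also holds genes that are not signals, such as Slc7a11 and Mgrn1, went in both directions as well. Of 13 tested, 6 were higher and 4 lower (median 1.13), beside 37.7% and 35.1% of all genes. Slc7a11, the cystine carrier that feeds the red pigment pathway, rose by 2.66 ± 0.18 and Hgf by 1.51. Pcsk1, a convertase of the melanocortin precursor, rose by 3.47 on 22 counts over all WT libraries. Nrg1 rose by 4.43 on 43 counts over all WT libraries, and by 5.71 without WT 2, which held the highest WT level. Kitl, the ligand of Kit, fell from 50.6 ± 11.6 to 34.7 ± 7.13 CPM, a log2 change of -0.52 ± 0.15 (edgeR, Benjamini-Hochberg adjusted p = 0.00906). Mgrn1, Fgf2 and Edn1 fell by 0.98, 1.65 and 1.15.

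**Figure D4:**
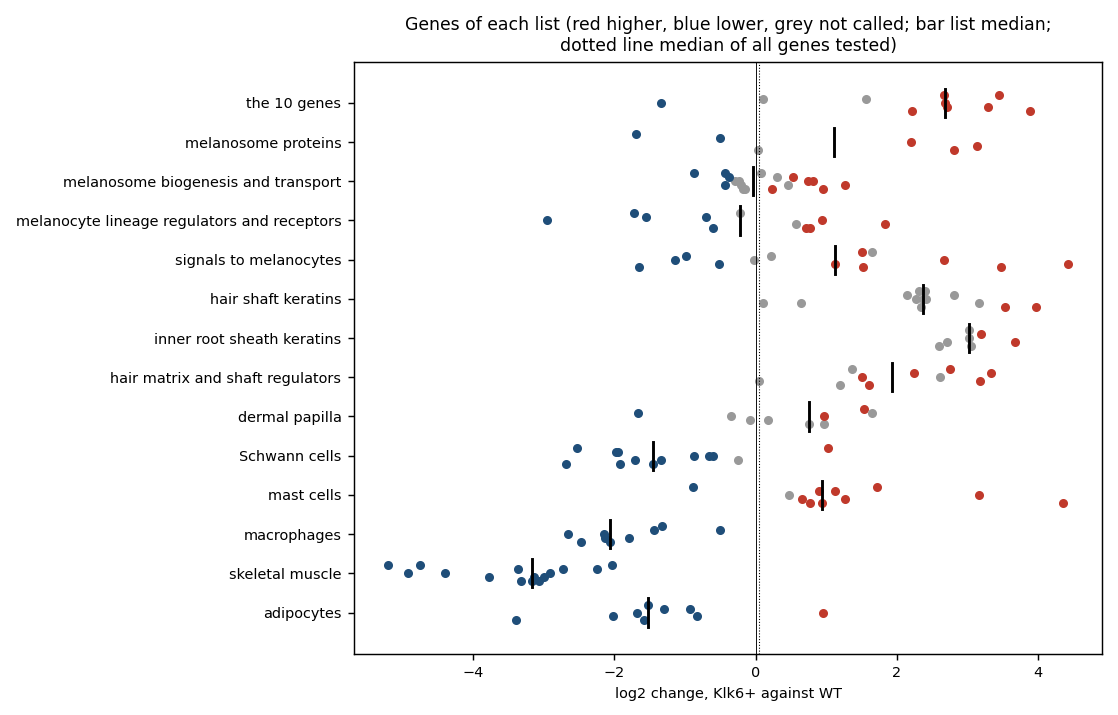
Log2 change of each tested gene, Klk6+ against WT, in the member, pigment pathway, hair and cell type lists, with the list median. The members have a median of 2.68, lineage regulators -0.23, hair shaft keratins 2.37, skeletal muscle genes -3.17 and all genes 0.04.

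Genes outside the members were ranked by how closely they followed Tyr, Tyrp1, Dct, Mlana, Slc45a2, Oca2 and Trpm1 from mouse to mouse. Over the 10 libraries, with genotype means removed, Pmel was first of 13848 genes with a Pearson r of 0.98. Arf5 (0.96), Tanc2 (0.96), Mfap4 (0.95), Tmem222, B930041F14Rik, Clstn3 and Carkd (0.95 each), Rab4b and Acaa1a (0.94 each) followed. The ranking rests largely on the wide differences among Klk6+ mice: for Arf5 the r was 0.998 within Klk6+ and 0.74 within WT. The genotype changes of these genes went in both directions, from -1.09 for Mfap4 to 3.62 for Clstn3. The call on Mfap4 (edgeR adjusted p = 0.0454) was lost without WT 1, 2, 4 or 5 or Klk6+ 1, 2 or 3, and its log2 change was -1.71 without Klk6+ 4.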

How the data were processed

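Whole skin was snap-frozen and pulverised, and polyA RNA was sequenced as 50-cycle single-end reads without strand information, per the labels' protocols. The authors deposited whole-number read counts and FPKM per gene for each mouse; TopHat2, SAMtools, HTSeq, Cufflinks 2.2.1 and GRCm38/mm10 appear in the submitters' processing notes, without their roles, and no header or label names the annotation version. Counts were tested with edgeR 4.0.16 (TMM scaling, filterByExpr with minimum count 10, 14861 of 20611 genes, sex as covariate), with Benjamini-Hochberg adjustment over all genes tested. CPM uses TMM-scaled library sizes, and ± after a log2 change is its SE. Replicate numbers were given in accession order. The interaction came from 4 genotype-by-sex means, and the hair keratin coefficient from a model with genotype, sex and the log2 summed CPM of hair shaft and inner root sheath keratins. The lowest chi-square per degree of freedom between libraries of 1 genotype was 40.5, so none was counted as a copy. FPKM, as deposited, was used to order members and, as log2(FPKM + 0.1) or log2(FPKM + 1) with limma 3.58.1, as an alternative; DESeq2 1.42.0 was another. The edgeR steps were tested on simulated data. Members, gene lists and tests were chosen with earlier results of these data known. Named genes were the 10 members, up to 4 per direction and pathway list by smallest p, and Pmel, Sox10, Kit and Kitl. Also named were up to 3 per direction and hair keratin list, and the 10 genes of at least 1 CPM most like Tyr, Tyrp1, Dct, Mlana, Slc45a2, Oca2 and Trpm1. Positions come from GENCODE M21 on GRCm38, and promoter windows from RefSeq.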

Additional observations from a re-analysis of the deposited data

Results flagged for a closer look

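The summed hair keratin level of Klk6+ 2, 4425 CPM, lay far from the other Klk6+ libraries, the next of which was Klk6+ 4 at 822 CPM; the gap was 0.818 of the range of the 5 libraries, above Dixon's 95% critical value of 0.710. Of 22 groups of 5 values checked, this was the 1 that passed. Chance alone passes about 1 in 20 where values are normally distributed, which was not checked for these CPM. On the log2 scale that the model used, Klk6+ 1 to 5 were at 9.31, 12.1, 4.17, 9.68 and 4.46. There the widest gap lay between Klk6+ 5 and Klk6+ 1, so Klk6+ 2 stands apart in CPM only. The members' hair keratin coefficients without this library are given in the report.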

How the results depend on the processing

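Alternatives covered scaling, filters, tools, FPKM, covariates and leaving out each mouse. Of 217 alternative values of the members' log2 changes, 206 kept their direction and side of the threshold, 5 passed it newly and 6 turned sign, all 6 in Mc1r: -0.045 in limma-voom, -0.017 on log2(FPKM + 0.1), -0.16 with the hair keratin level in the model, -0.01 without WT 1, -0.31 without Klk6+ 1 and -0.046 without Klk6+ 4, within a range of -0.31 to 0.24 over the mice left out. With each mouse left out in turn, 7 to 8 members were higher, 1 to 1 lower, 0 to 0 had an interaction and 0 to 2 had a called hair keratin coefficient. With a minimum count of 50 only 7 members were tested and 4 were higher. DESeq2 called 5 hair keratin coefficients, beside 1.16% of all genes called positive. Leaving out both Klk6+ 3 and Klk6+ 5, an alternative chosen after seeing the data, turned the hair keratin coefficients of Tyr (-0.049) and Dct (-0.015), and the cause was not tested. Mlana was called without a filter on low counts (adjusted p = 0.0496) and in DESeq2 (adjusted p = 0.0173), with a highest adjusted p over its alternatives of 0.269. Of 943 values of the other named genes, 888 kept direction and call, 54 lost the call, 1 gained it and 0 turned sign. Depth limits Oca2, Slc45a2 and Asip, with at most 18 counts in any WT library. No paired analysis was possible because the labels give no replicate numbers that tie a WT mouse to a Klk6+ mouse.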
